A study of Mus musculus with 5 samples.

Results

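The cells described here are macrophages of the mouse colon mesenchyme that carried RNA of Mrc1, F13a1 or Pf4 beside the macrophage genes C1qa, C1qb, C1qc and Csf1r. A cell was a member when it had a unique molecular identifier (UMI, the tag of one captured RNA molecule) for at least 2 of C1qa, C1qb, C1qc and Csf1r and for at least 1 of F13a1, Mrc1 and Pf4. Members numbered 362 of 6005 retained cells, where a retained cell had 300 or more genes and at most 10% mitochondrial UMIs. The profiles were made by Drop-seq, in which each cell shares a droplet with a barcoded bead that binds its polyadenylated RNA. All cells came from untreated C57/BL6 mice aged 10 weeks, so the study has 1 group and no contrast between conditions. The epithelium had been removed with EDTA and DTT before Collagenase XI and Dispase released the mesenchymal cells. The 5 droplet collections belong to 2 biological replicates, 1A and 1B to the first and 2A, 2B and 2C to the second. The number of animals behind each replicate and their sex are not given in the sources used here.

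Macrophages of the gut wall engulf dying cells and microbes, present peptides on MHC class II and secrete chemokines. C1qa, C1qb and C1qc encode the chains of complement C1q, and Csf1r encodes the receptor for the macrophage growth factor CSF1. Mrc1 encodes the mannose receptor CD206, F13a1 the catalytic A subunit of coagulation factor XIII, and Pf4 the chemokine platelet factor 4. Macrophages that lie along vessels and nerves are known for Lyve1, Cd163 and Folr2, and many of them persist in the tissue for long times, whereas others are replaced by blood monocytes. How long a cell had been in the tissue was not measured here, so the word resident in the working name of these cells was not tested.

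The members were chosen by their UMI counts of the 7 genes above, so the values of these genes are a description with no test. C1qb was the most often seen, with a UMI in 333 of the 362 cells (1572 UMIs), followed by C1qa in 324 (1147 UMIs), C1qc in 315 (1055 UMIs) and Csf1r in 191 (305 UMIs). Mrc1 was seen in 300 cells (843 UMIs), Pf4 in 263 (816 UMIs) and F13a1 in 131 (295 UMIs). All 3 selecting genes were seen together in 93 cells, Mrc1 with Pf4 in 109 and F13a1 with Mrc1 in 23. Mrc1 was the only selecting gene in 75 cells, Pf4 in 47 and F13a1 in 1. The overlap was lopsided: 88.6% of the cells with F13a1 had Mrc1, while 38.7% of the cells with Mrc1 had F13a1. Near the threshold, 57 members rested on a single UMI over the 3 selecting genes, and 70 members had 2 of the 4 macrophage genes. Just outside it, 53 retained cells had a selecting gene and 1 of the 4 macrophage genes, at a median of 1220 UMIs per cell. A further 179 cells had a selecting gene and none of the 4, and 66 had the macrophage genes and no selecting gene.

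The working name could be checked on macrophage markers outside the rule. Emr1, which encodes the F4/80 antigen, was at 228 and 199 CPM in replicates 1 and 2 of the gated cells (CPM, a gene's count scaled by all UMIs of the cells summed) and at 2.11 and 1.91 CPM in the cells outside the 3 gates compared below. Of all Emr1 UMIs in retained cells, 86.0% were in gated cells. Apoe stood at 7298 and 7724 CPM in the gated cells and at 383 and 404 CPM outside the gates. Markers of other cell classes were low but not absent. Blood endothelial markers made up 0.0137% and 0.0107% of the gated cells' UMIs, lymphatic endothelial markers 0.00582% and 0.00869%, and platelet markers 0.00116% and 0.00114%, with Gp1bb and Nrgn among those at 0. Neutrophil markers made up 0.0109% and 0.00892%, against 0.000295% and 0.000477% outside the gates, with S100a8, S100a9, Retnlg and Mmp8 at 0 and Csf3r at 107 and 86.9 CPM. T and innate lymphoid markers made up 0.0648% and 0.0579%, against 0.0242% and 0.0168% outside the gates, with Cd3e, Cd247 and Nkg7 at 0 and Il7r at 638 and 560.3 CPM. Fibroblast markers made up 0.139% and 0.180%, against 1.64% and 1.91% outside the gates, and 128 of the 362 cells had UMIs of 3 or more fibroblast markers. B and plasma cell markers, mostly immunoglobulin, differed between the replicates at 0.207% and 0.0270%.

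Free RNA in droplets puts UMIs into cells that do not express a gene. In 3518 cells with fibroblast markers (median 1357.5 UMIs, against 2041.5 in the gated cells), F13a1 was seen in 0.398%, Mrc1 in 1.31%, Pf4 in 1.68% and C1qb in 3.81%. Lymphatic endothelium is another known source of Mrc1 and Lyve1. Among 239 cells with lymphatic endothelial markers, 16.7% had an Mrc1 UMI and 68.6% a Lyve1 UMI, while F13a1 was seen in 0.418% and Emr1 in none. Both sets of cells were taken from outside the gates. Cells with UMIs of 2 or more of C1qa, C1qb, C1qc and Csf1r had thus been left out of them. That choice holds down the share with C1qb and may hold down the shares with F13a1, Mrc1 and Pf4.

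The gated cells formed a similar share of every collection. They were 99 of 1733 retained cells in 1A (5.71%), 90 of 1308 in 1B (6.88%), 63 of 1132 in 2A (5.57%), 47 of 864 in 2B (5.44%) and 63 of 968 in 2C (6.51%). The exact 95% intervals of all 5 shares overlap. Over the 2 biological replicates the share was 6.03% ± 0.268 (SD, n = 2). Members held 866529 UMIs, and no member's barcode was found in a second collection. Gated cells with an F13a1 UMI made up 29.6% of the members in replicate 1 (56 of 189, exact 95% interval 23.2 to 36.7%) and 43.4% in replicate 2 (75 of 173, 35.9 to 51.1%). The mean was 36.5% ± 9.70 (SD, n = 2). Median UMIs per gated cell were 1885 in replicate 1 and 2295 in replicate 2, and the part of depth in that difference was not tested.

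**Figure D1:**
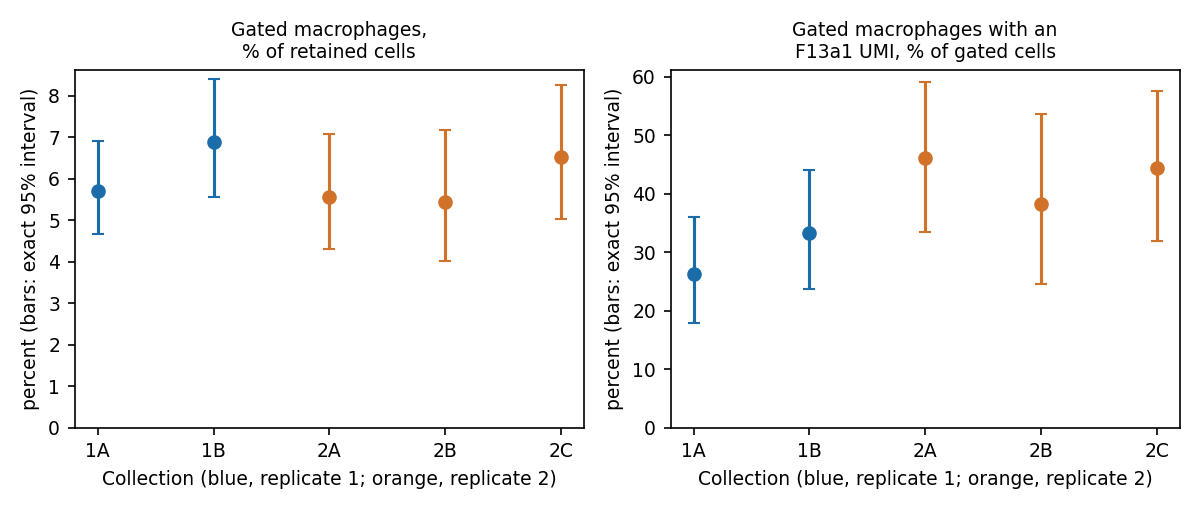
Share of retained cells in the macrophage gate (left) and share of gated cells with an F13a1 UMI (right) in each of the 5 collections, in percent, with exact 95% binomial intervals that cover counting error only. The left shares run from 5.44% to 6.88%, and the right shares are 26.3% and 33.3% in replicate 1 and 38.3% to 46.0% in replicate 2.

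Promoters of F13a1 and of the genes of the long-lived and perivascular list named in the F13a1 comparison are shown first, since that comparison carries the main pattern within these cells. Each run covers 250 bases before to 50 after a transcription start, from RefSeq on GRCm38.p6, read 5′ to 3′ on the gene's strand. Lyve1 was not in the table used. Capitals mark GGAAGT, the core of sites for the myeloid factor PU.1, and TGCTGA, the core of sites for MAF factors, on either strand.
F13a1, GENCODE start, chr13:37050195-37050494, minus strand: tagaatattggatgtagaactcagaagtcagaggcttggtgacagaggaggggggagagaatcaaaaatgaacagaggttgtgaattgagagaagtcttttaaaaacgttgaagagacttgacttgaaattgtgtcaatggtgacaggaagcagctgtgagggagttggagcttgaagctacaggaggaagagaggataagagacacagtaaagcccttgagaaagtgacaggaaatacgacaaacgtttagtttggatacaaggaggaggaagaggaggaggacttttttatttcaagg
F13a1, inner start, chr13:37049164-37049463, minus strand: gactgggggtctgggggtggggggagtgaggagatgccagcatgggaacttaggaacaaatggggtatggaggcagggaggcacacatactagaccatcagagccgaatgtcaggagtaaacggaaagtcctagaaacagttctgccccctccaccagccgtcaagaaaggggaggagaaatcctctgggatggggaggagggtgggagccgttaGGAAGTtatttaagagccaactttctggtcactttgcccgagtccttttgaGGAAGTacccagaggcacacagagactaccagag
Fcna, chr2:25627925-25628224, minus strand: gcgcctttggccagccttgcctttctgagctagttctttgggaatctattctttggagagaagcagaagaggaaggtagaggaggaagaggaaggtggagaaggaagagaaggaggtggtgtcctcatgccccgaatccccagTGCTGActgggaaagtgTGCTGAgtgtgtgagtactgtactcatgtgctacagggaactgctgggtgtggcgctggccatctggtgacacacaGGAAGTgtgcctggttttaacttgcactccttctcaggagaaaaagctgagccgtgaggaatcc
Ltc4s, chr11:50238483-50238782, minus strand: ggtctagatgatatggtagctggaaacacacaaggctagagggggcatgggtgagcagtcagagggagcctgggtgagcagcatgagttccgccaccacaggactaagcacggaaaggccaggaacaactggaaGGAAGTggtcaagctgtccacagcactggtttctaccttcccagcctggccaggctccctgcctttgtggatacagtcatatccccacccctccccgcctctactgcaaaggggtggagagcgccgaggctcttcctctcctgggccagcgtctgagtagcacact
Cbr2, chr11:120731972-120732271, minus strand: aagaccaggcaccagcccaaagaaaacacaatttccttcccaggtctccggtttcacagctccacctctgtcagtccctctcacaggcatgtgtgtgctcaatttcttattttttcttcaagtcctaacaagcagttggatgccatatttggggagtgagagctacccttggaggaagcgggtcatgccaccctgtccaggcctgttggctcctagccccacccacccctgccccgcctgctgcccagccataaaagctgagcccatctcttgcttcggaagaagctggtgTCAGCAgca
No capitals fall in the F13a1 window whose start GENCODE M21 also gives as the end of the gene model. The window of the inner start holds 2 PU.1 cores, Fcna 1 PU.1 core and 2 MAF cores, Ltc4s 1 PU.1 core and Cbr2 1 MAF core. Such short strings are common: GGAAGT was in 23.8% and TGCTGA in 19.5% of 32851 promoters. In all, 5 overlapping strings were searched, after results of these data were known. The other 3 were the longer forms GAGGAAGT (3.20% of promoters), TGCTGAC (4.67%) and TGCTGAG (7.84%). Of the 8 genes of the list that were higher with F13a1, 6 were in the table, with 8 windows. GGAAGT was in 4 of these windows and TGCTGA in 2. A match is a run of letters and no measured binding.

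Members with an F13a1 UMI (131 cells) were set against members without one (231 cells). Cells with F13a1 had more RNA of genes known from perivascular macrophages and of the chemokines Ccl7, Ccl2 and Ccl8. Cells without F13a1 had more RNA of MHC class II genes, Il1b, Il1r2 and the protease gene Mmp13. UMIs were summed per biological replicate and class and compared with edgeR's quasi-likelihood test, the replicate as a block and p adjusted by the Benjamini-Hochberg method over 3540 genes. Here 40 genes were higher with F13a1 (1.13%) and 41 lower (1.16%). The median depth was 2011 UMIs per cell with F13a1 and 2129 without, and the upper quartiles were 2515.5 and 3363. Dendritic cell markers made up 0.00678% and 0.00454% of UMIs with F13a1 and 0.0175% and 0.0172% without, and 0 of 131 against 12 of 231 cells had 2 or more of them. With those 12 cells left out, an alternative chosen after these values were seen, 2 genes stayed higher with F13a1 and 11 lower, with 516 of 3423 genes at an unadjusted p under 0.05. Of the 45 named or listed genes that had passed, 10 still passed and none changed sign. Ccl7 (1.58), Cxcl1 (1.27), H2-Ab1 (-1.85), Cd74 (-1.47) and Mmp13 (-3.74) were among the 10 (each adjusted p = 0.044), whereas Lyve1 (2.25, adjusted p = 0.088), Fcna (2.55, adjusted p = 0.094), Il1b (-2.94, adjusted p = 0.060) and Il1r2 (-3.71, adjusted p = 0.059) missed the threshold. Cbr2, Ltc4s, Cd163, Gas6, Maf and Sepp1 (adjusted p = 0.09 to 0.14) missed it too, as did Ccl2 (adjusted p = 0.099) and Ccl8 (adjusted p = 0.11). None of the 8 genes of the long-lived and perivascular list that had passed still did. A cell without an F13a1 UMI may still have expressed the gene, since 1 UMI is easily missed at this depth.

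On the long-lived and perivascular list, 8 of 20 tested genes were higher with F13a1 and none lower, with a median log2 fold change of 1.12 against -0.01 over all tested genes. Fcna, which encodes the lectin ficolin A, was at 145 and 244 CPM in replicates 1 and 2 with F13a1 and at 21.5 and 38.3 CPM without. The 2 classes did not overlap, and the log2 fold change was 2.67 ± 0.35 (SE, adjusted p = 0.012). Lyve1, the hyaluronan receptor of lymphatic vessels and perivascular macrophages, stood at 300 and 431 CPM against 46.0 and 99.6 CPM (2.33 ± 0.28, adjusted p = 0.0087). Lymphatic endothelial markers made up 0.00484% and 0.00624% of UMIs with F13a1 and 0.00613% and 0.0103% without. The part of lymphatic RNA in the Lyve1 difference was not tested. Cbr2, a carbonyl reductase gene, stood at 262 and 329 CPM against 55.2 and 49.8 CPM (2.46 ± 0.30, adjusted p = 0.0088). Ltc4s, the synthase of leukotriene C4, reached 155 and 204 CPM against 27.6 and 30.6 CPM (2.58 ± 0.36, adjusted p = 0.015). Cd163, the haemoglobin scavenger receptor, was at 155 and 176 CPM against 39.9 and 46.0 CPM (1.92 ± 0.34, adjusted p = 0.034). Gas6, a bridging ligand for the uptake of dying cells, Maf, a macrophage transcription factor, and Sepp1, selenoprotein P, were also higher, with log2 fold changes of 1.57, 1.07 and 0.68. Folr2, the folate receptor of many tissue macrophages, was at 107 and 148 CPM against 30.7 and 34.5 CPM and just missed the threshold (1.93 ± 0.39, adjusted p = 0.051). Cd28, known as a T cell costimulatory receptor, was named by rank, at 155 and 153 CPM against 33.7 and 15.3 CPM (2.62 ± 0.42, adjusted p = 0.024). St6galnac4, a sialyltransferase gene, was at 213 and 131 CPM against 49.1 and 34.5 CPM (2.01 ± 0.34, adjusted p = 0.029). Stab1 of the list (1.17 ± 0.32, adjusted p = 0.12) and Timd4 (-2.13 ± 0.61, adjusted p = 0.13) did not pass either. Timd4, a phosphatidylserine receptor that also marks long-lived macrophages, lay on the other side from Lyve1, with a UMI in 4 of the 131 cells with F13a1 and in 27 of the 231 without.

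Of the 15 tested MHC class II and antigen presentation genes, 6 were lower with F13a1 and none higher, at a median log2 fold change of -0.52. H2-Ab1 was at 2877 and 2111 CPM with F13a1 and at 8652 and 9301 CPM without (-1.88 ± 0.15, adjusted p = 0.0013). Cd74, the invariant chain that guides MHC class II to peptide loading, stood at 6559 and 5829 CPM against 16509 and 17840 CPM (-1.49 ± 0.10, adjusted p = 0.0013). H2-Aa (-1.57), H2-Eb1 (-1.54), H2-DMa (-1.34) and H2-DMb1 (-2.57) were lower as well. Together the 21 genes of the list in the tables made up 2.46% and 2.17% of UMIs with F13a1 and 4.91% and 5.09% without.

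Among secreted signals, 5 of 14 tested chemokines were higher with F13a1 and 1 lower. Ccl7, which attracts monocytes, was at 1366 and 2321 CPM with F13a1 and at 383 and 770 CPM without (1.68 ± 0.14, adjusted p = 0.0015). Both classes were higher in replicate 2, and within each replicate the class with F13a1 was the higher one. Ccl2, the main ligand of CCR2, reached 814 and 1220 CPM against 267 and 525 CPM (1.37 ± 0.17, adjusted p = 0.011). Ccl8 (1.82), Cxcl1 (1.20) and Cxcl2 (0.61) were higher too, whereas Cxcl10, an interferon-induced chemokine, was lower (-1.45 ± 0.27, adjusted p = 0.040). Fibroblasts also carried Ccl2 (12.8% of cells with a UMI), Ccl7 (9.18%) and Ccl8 (7.33%). Fibroblast markers made up 0.212% and 0.152% of UMIs with F13a1 and 0.115% and 0.200% without. The part of fibroblast RNA in the chemokine differences was not tested. Of 7 tested growth factor genes, 3 were higher with F13a1: Hbegf (1.81), which encodes an EGF receptor ligand, Gdf15 (1.03) and Igfbp4 (1.52).

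Il1b, the gene of interleukin 1 beta, was the 1 cytokine of 9 tested that differed. It stood at 77.5 and 176 CPM with F13a1 and at 1205 and 999.8 CPM without (-3.01 ± 0.29, adjusted p = 0.0023). Il1r2, the decoy receptor that binds interleukin 1, moved the same way, from 155 and 45.4 CPM to 1187 and 1149 CPM without F13a1 (-3.73 ± 0.33, adjusted p = 0.0016). Mmp13, a collagenase gene, was at 67.8 and 39.7 CPM against 1043 and 475 CPM (-3.77 ± 0.27, adjusted p = 0.0013). Thbs1, thrombospondin 1, was at 38.8 and 34.1 CPM against 442 and 590 CPM (-3.88 ± 0.31, adjusted p = 0.0014). Cytip, a regulator of leukocyte adhesion, was at 48.4 and 34.1 CPM against 592 and 605 CPM (-3.92 ± 0.30, adjusted p = 0.0013). Il7r, which also marks T and innate lymphoid cells, was at 107 and 159 CPM against 807 and 831 CPM (-2.59 ± 0.22, adjusted p = 0.0015). T and innate lymphoid markers, Il7r included, made up 0.0107% and 0.0199% of UMIs with F13a1 and 0.0819% and 0.0835% without. Cd3e was at 0 in all gated cells, and 1 gated cell had 3 or more of these markers. Apol7c and Klrb1b had no UMI with F13a1 and 85 and 69 UMIs without. Against a floor of 3 counts over the class they were at least 13.5-fold and 10.9-fold lower with F13a1. Gbp2b had 1 UMI with F13a1 and 60 without, a ratio of 28.6 with a counting interval of 4.93 to 1146. Apol7c, Klrb1b and Gbp2b have close relatives in the genome, and how reads shared with such copies were counted is not given in the sources used here.

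Of 19 tested macrophage markers outside the rule, none passed in either direction (median 0.07), a count near the low share of calls over all genes in this comparison. Among all 3540 genes, 613 had an unadjusted p under 0.05. Emr1 was at 194 and 272 CPM with F13a1 and at 239 and 149 CPM without. No complement gene of 10 tested passed. Of 31 phagocytosis and lysosome genes, 3 were higher with F13a1: Lamp2 (1.14), Ctsd (1.12) and Grn (1.03). When each cell was thinned to 600 UMIs, Grn, Hmox1, Jund and Gdf15 changed sign and did not pass. Of 10 iron and haem genes, Hmox1, haem oxygenase 1, was higher (1.22) and Slc11a1, a phagosomal metal transporter, lower (-1.20). Of 25 immediate-early and heat-shock genes, which dissociation can induce, Jund and Atf3 were higher with F13a1. The list made up 2.89% and 2.83% of UMIs with F13a1 and 2.38% and 2.21% without, and its part in the other differences was not tested.

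Cell by cell the 2 sides overlapped in part. UMIs of Lyve1, Cd163, Fcna, Cbr2, Ltc4s and Gas6 stood for the perivascular side, and UMIs of Il1b, Il1r2, Mmp12, Mmp13, Dnase1l3 and Thbs1 for the other, called the Il1b side here. With F13a1, 77 of 131 cells carried genes of the perivascular side alone, 9 of the Il1b side alone, 34 of both and 11 of neither. Without F13a1, 39 of 231 cells carried the perivascular side alone, 111 the Il1b side alone, 44 both and 37 neither. The genes of both sides were taken from this comparison, so these counts describe the cells and are no further test.

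The 24 genes drawn in the plot of this split had the same direction in both replicates. They were picked among genes that passed in this comparison, so that is no further test. The number of calls rests on few sums. The fit had 4 sums and 1 residual degree of freedom. Without the filter on low counts, 0 genes passed in edgeR in either direction, with 712 at an unadjusted p under 0.05, and DESeq2 called 9 higher and 16 lower genes. Calls for Cd74, H2-Ab1, H2-Eb1, Il7r, Mmp13, Thbs1 and Cytip held under every alternative in which they were tested other than that one. After the same thinning, 0 genes passed as higher and 5 as lower, with 46 of 471 genes at an unadjusted p under 0.05. Without collection 1A, 14 genes were higher, and without 1B, 2A, 2B or 2C they were 82, 128, 141 and 112. Genes lower with F13a1 numbered 29 without 1A, 75 without 1B, 115 without 2A, 122 without 2B and 94 without 2C.

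**Figure D2:**
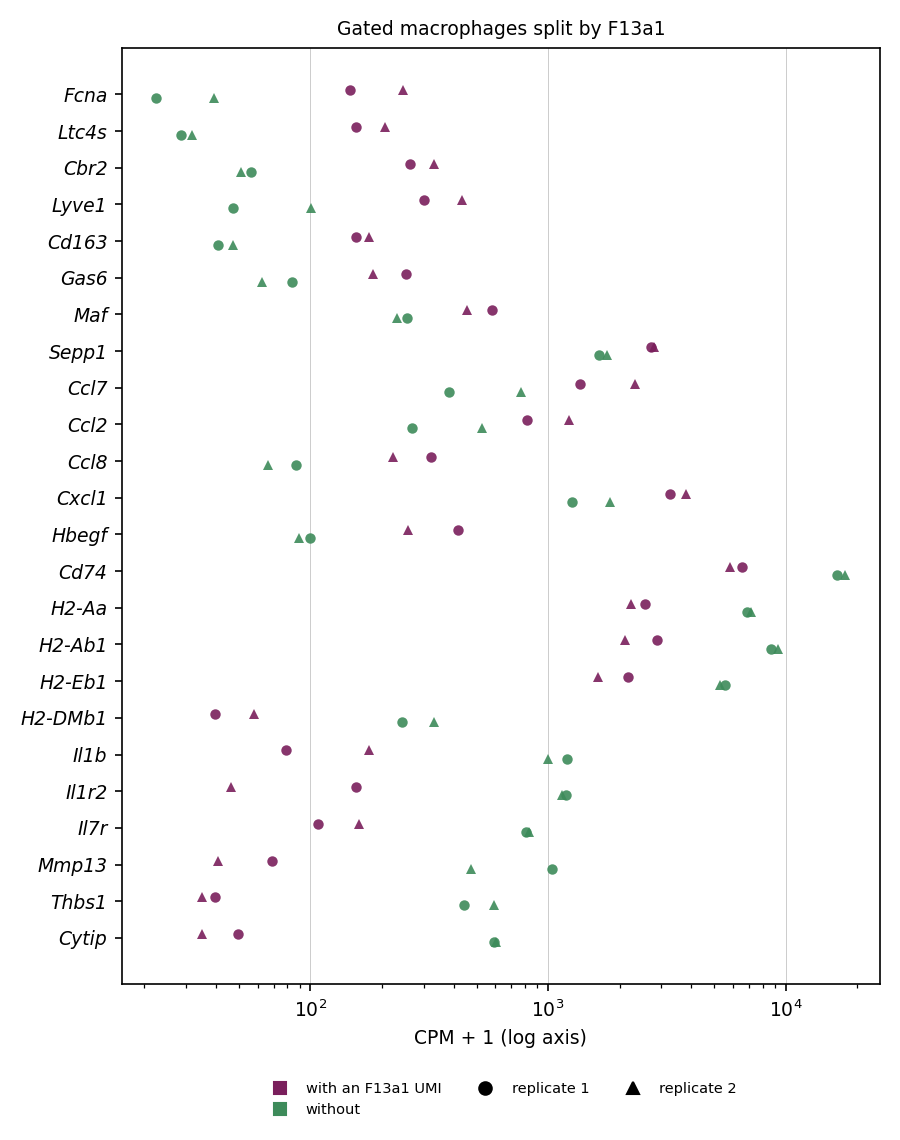
Level of 24 genes in gated macrophages with and without an F13a1 UMI, as CPM + 1 on a log axis; circles are replicate 1 and triangles replicate 2, each a sum over cells. The 2 colours do not overlap for any gene drawn, but the genes were picked among those that passed in this comparison. How many of all tested genes lack overlap was not counted. Fcna is at 145 and 244 CPM against 21.5 and 38.3, and Il1b at 77.5 and 176 CPM against 1205 and 999.8.

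Gated cells were next set against the 66 macrophages without a UMI of F13a1, Mrc1 or Pf4 (35 in replicate 1 and 31 in replicate 2). Gated cells had more RNA of Ccl7, Ccl2, Cxcl1 and the ATP receptor gene P2rx7, and of the perivascular genes Lyve1 and Cbr2. The calls for Lyve1 and Cbr2 were lost in DESeq2, without collection 1B and without 2C. Of 2571 tested genes, 72 were higher (2.80%) and 83 lower (3.23%) in the gated cells. The fit held 3 gates in 2 replicates and left 2 residual degrees of freedom. The other macrophages had a median of 1906.5 UMIs per cell, and members whose F13a1, Mrc1 and Pf4 were missed at this depth would be among them.

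Ccl7 was at 620 and 1395 CPM in the gated cells and at 25.6 and 137 CPM in the other macrophages (3.76 ± 0.38, adjusted p = 0.0070). Ccl2 was at 398 and 805 CPM against 42.6 and 108 CPM (3.02 ± 0.51, adjusted p = 0.016), and Cxcl1 at 1738 and 2628 CPM against 460 and 539 CPM (2.15 ± 0.36, adjusted p = 0.015). The gates did not overlap for any of the 3. P2rx7, which senses extracellular ATP, was at 466 and 348 CPM against 17.0 and 29.4 CPM (4.14 ± 0.51, adjusted p = 0.0095). In all, 6 of 15 tested chemokines were higher and none lower, at a median log2 fold change of 1.61 against 0.00 over all genes. Some genes of the naming rule had only 2 or 3 UMIs in the other macrophages, so their ratios are given with counting intervals. Ccl8 was 14.8 times higher (4.01 to 124), Cbr2 14.7 times (3.98 to 123), Uap1l1 11.8 times (3.17 to 98.7) and Fcrls 10.0 times (3.36 to 49.4). On the long-lived and perivascular list, 6 of 9 tested genes were higher: Lyve1 (2.06), Cbr2, Sepp1 (1.59), Ninj1 (1.21), Fcrls and Maf (2.27). Among macrophage markers outside the rule, 5 of 16 were higher, among them Emr1 (2.41), Ms4a7 (1.63), Fcer1g (1.27) and Laptm5 (0.95). Ms4a7 turned lower, without passing, once cells with 2 or more markers of a non-myeloid class were left out, and Ninj1 did so after thinning. The remaining named genes that were higher were Tanc2 (2.66), the cytokine receptor gene Il21r (2.40) and the adaptor gene Blnk (2.18). No MHC class II gene of 15 passed, and Il1b (-0.68 ± 0.34, adjusted p = 0.28) and Apoe (0.40 ± 0.25, adjusted p = 0.39) did not pass.

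Genes lower in the gated cells were led by Il22ra2, which encodes the soluble antagonist of interleukin 22 (adjusted p = 0.0027). Its level was 0 and 2.29 CPM in the gated cells, a single UMI, and 281 and 1038 CPM in the other macrophages, a ratio of 549 (counting interval 96.9 to 21825). Lyz1, lysozyme 1, was lower too, at 41.9 and 25.2 CPM against 937 and 1195 CPM (-4.99 ± 0.52, adjusted p = 0.0070). Lyz1 has a near-identical neighbour, Lyz2, and reads of the pair may be split by the counting. Several of the remaining 10 named genes are known from endothelium: Erg (-4.40), Myct1 (-4.33), Mmrn2 (-4.51) and Gpr116 (-4.25), and, with 1 to 3 UMIs in the gated cells, Cdh5 (80.9 times lower, 21.0 to 691), Dll4 (48.7 times, 15.4 to 247) and Apln (122 times, 20.4 to 4987). Iglc2 (-5.65) is an immunoglobulin gene, with 103 of its 104 UMIs in the other macrophages from replicate 1, and Clu (-5.26) and Timeless (-4.86) complete the rule. Blood endothelial markers made up 0.117% and 0.210% of UMIs in the other macrophages, and 5 of those 66 cells had 3 or more of them, against 1 of 362 gated cells. Dendritic cell markers made up 0.0145% and 0.0490% of UMIs in the other macrophages and 0.0149% and 0.0121% in the gated cells. Their part in the Il22ra2 difference was not tested.

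With cells that carried 3 or more markers of any non-myeloid class left out, an alternative chosen after these genes were seen, 9 genes were higher and 5 lower of 1100 tested. Ccl7 (3.36), P2rx7 (2.87), Ccl2 (2.06) and Cxcl1 (1.81) stayed among the 9. Il1b (-1.27) and Il1r2 (-1.22) were then among the 5 lower. When at least 3 of the 4 macrophage genes were required, 0 genes were higher in edgeR, with 248 at an unadjusted p under 0.05 in either direction. Without collection 1B, 29 genes were higher and 51 lower, and without 2C the counts were 17 and 35. The calls for Ccl8, Cbr2, Fcrls, Tanc2, Emr1, Il21r, Lyve1, Fcer1g and Laptm5 were lost without 1B and without 2C. Those for Mmrn2 and Apln on the lower side were lost in the same 2 settings. In DESeq2, Lyve1 (adjusted p = 0.26) and Cbr2 (adjusted p = 0.12) did not pass.

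Against the dendritic gate the differences were broader and included many phagocyte genes. That gate held 67 cells (41 and 26) with at least 2 of Flt3, Zbtb46, Ccr7, Xcr1, Clec9a, Cd209a, Batf3 and Ccl22 and at most 1 of the 4 macrophage genes. Its median was 2558 UMIs per cell. Of 2567 tested genes, 413 were higher (16.1%) and 290 lower (11.3%) in the gated macrophages. Lysosomal, iron-handling, chemokine and macrophage marker genes were mostly higher. The 2 gates differ by rule in C1qa, C1qb, C1qc and Csf1r, so genes that go with these 4 may be higher by that choice. The part of that choice in the differences was not tested. Il1b, Ccl17 and H2-DMb2 were lower.

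Of 28 tested phagocytosis and lysosome genes, 24 were higher and none lower, at a median log2 fold change of 2.51. Apoe, the lipid carrier, was at 7298 and 7724 CPM against 158 and 57.9 CPM (6.12 ± 0.35, adjusted p = 6.7e-05). Ctsb, the protease cathepsin B, was at 2991 and 3165 CPM against 374 and 301 CPM (3.29 ± 0.21, adjusted p = 8.9e-05). Of 7 iron and haem genes 6 were higher, among them Slc11a1, at 403 and 364 CPM against 16.6 and 0 CPM (39.6 times, counting interval 10.9 to 329), and Ftl1, ferritin light chain (1.02 ± 0.17, adjusted p = 0.0042). Spic, a transcription factor of iron-recycling macrophages, had 104 UMIs in the gated cells and none in the dendritic gate, at least 8.28-fold higher against the floor of 3 counts.

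Of 16 macrophage markers outside the rule 13 were higher, among them Fcer1g, the shared signalling chain of Fc receptors, at 689.5 and 862 CPM against 216 and 197 CPM (1.98 ± 0.27, adjusted p = 0.0021). Chemokines were higher in 11 of 14 tests. Cxcl2, a neutrophil attractant and the chemokine with the highest CPM among those named here, was at 6755 and 7820 CPM against 1710 and 220 CPM (3.14 ± 0.65, adjusted p = 0.0097). Tnf was at 368 and 467 CPM against 66.4 and 11.6 CPM (3.35 ± 0.50, adjusted p = 0.0030). Pdgfa, a growth factor for mesenchymal cells, was at 324 and 329 CPM against 8.30 and 11.6 CPM, 1 UMI in each replicate of the dendritic gate (33.8 times, 9.27 to 280.3). The genes named by rank, Lat2, C5ar1, Fblim1, Pla2g15, Cd300ld and Ccl8, had no UMI in the dendritic gate. C5ar1, the receptor for complement C5a, was at 287 and 313 CPM in the gated cells, at least 20.7-fold higher against the same floor, and Lat2 at least 23.6-fold higher.

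On the lower side, Ccl17, a chemokine of dendritic cells, had 3 UMIs in the gated cells and stood at 432 and 1007 CPM in the dendritic gate (194 times lower, counting interval 65.1 to 953, adjusted p = 8.9e-05). Serpinb6b was lower (-6.08), as were Flrt3 (245 times, 66.3 to 2047), Il22ra2 (285 times, 49.4 to 11414) and H2-Q10 (105 times, 17.1 to 4300), each with 1 or 2 UMIs in the gated cells. The predicted gene 1600029D21Rik had no UMI in the gated cells and 29 in the dendritic gate, at least 40.5-fold lower. H2-Q10 belongs to a family of near-identical class I genes, and its counts are uncertain for that reason. Il1b was at 934 and 668 CPM against 2026 and 2130 CPM (-1.26 ± 0.33, adjusted p = 0.024). Both gates carried MHC class II and antigen presentation genes, at 4.32% and 3.91% of UMIs in the gated cells and 5.56% and 4.75% in the dendritic gate. Of 15 tested, H2-DMb2 was lower (-3.06) and Ctss higher, where 11.3% and 16.1% of all tested genes were lower and higher. H2-Aa (-0.38 ± 0.18, adjusted p = 0.15) and Cd74 (-0.28 ± 0.17, adjusted p = 0.25) did not pass. Blood endothelial markers made up 0.0282% and 0.127% of UMIs in the dendritic gate, and their part in the lower genes was not tested. Relative to raw totals instead of TMM factors, the median of all genes moved by -0.11 on the log2 scale.

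**Figure D3:**
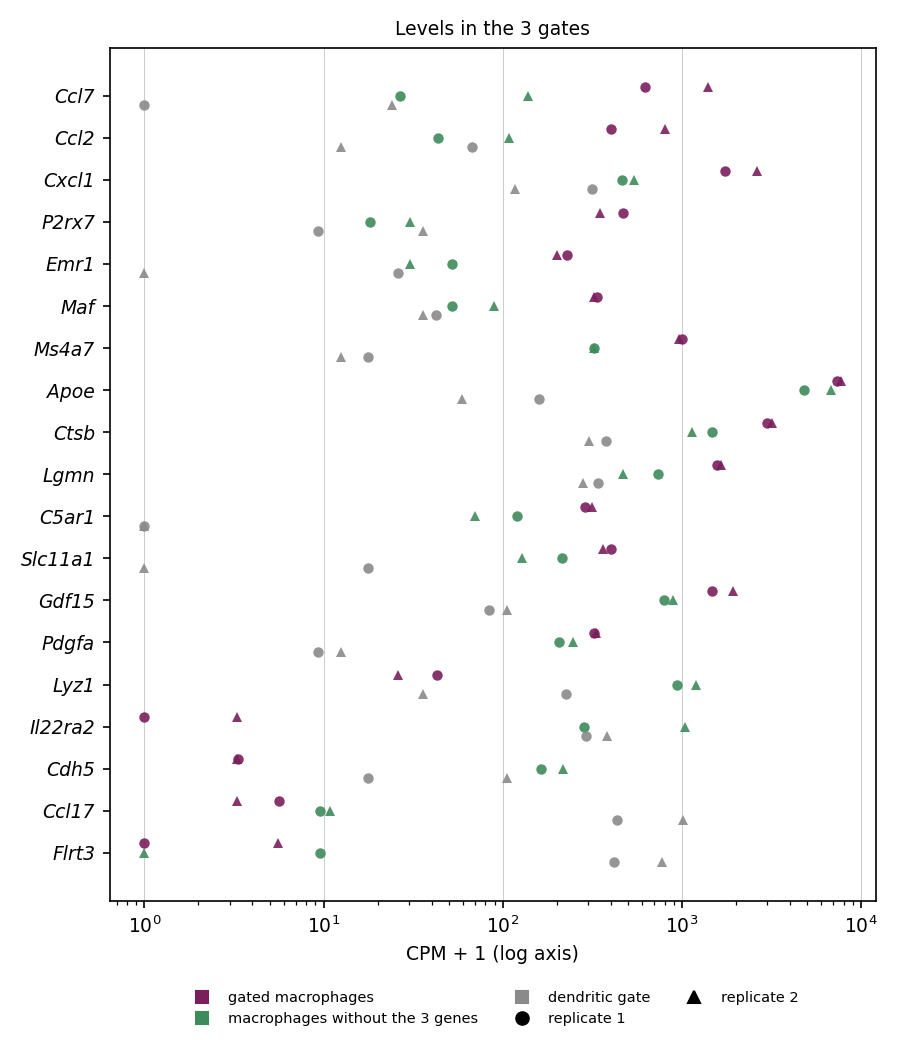
Levels of 19 genes in the gated macrophages, the macrophages without F13a1, Mrc1 and Pf4 and the dendritic gate, as CPM + 1 on a log axis, with circles for replicate 1 and triangles for replicate 2. Ccl7 is at 620 and 1395 CPM in the gated cells and at most 137 CPM elsewhere; Ccl17 is at 432 and 1007 CPM in the dendritic gate.

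**Figure D4:**
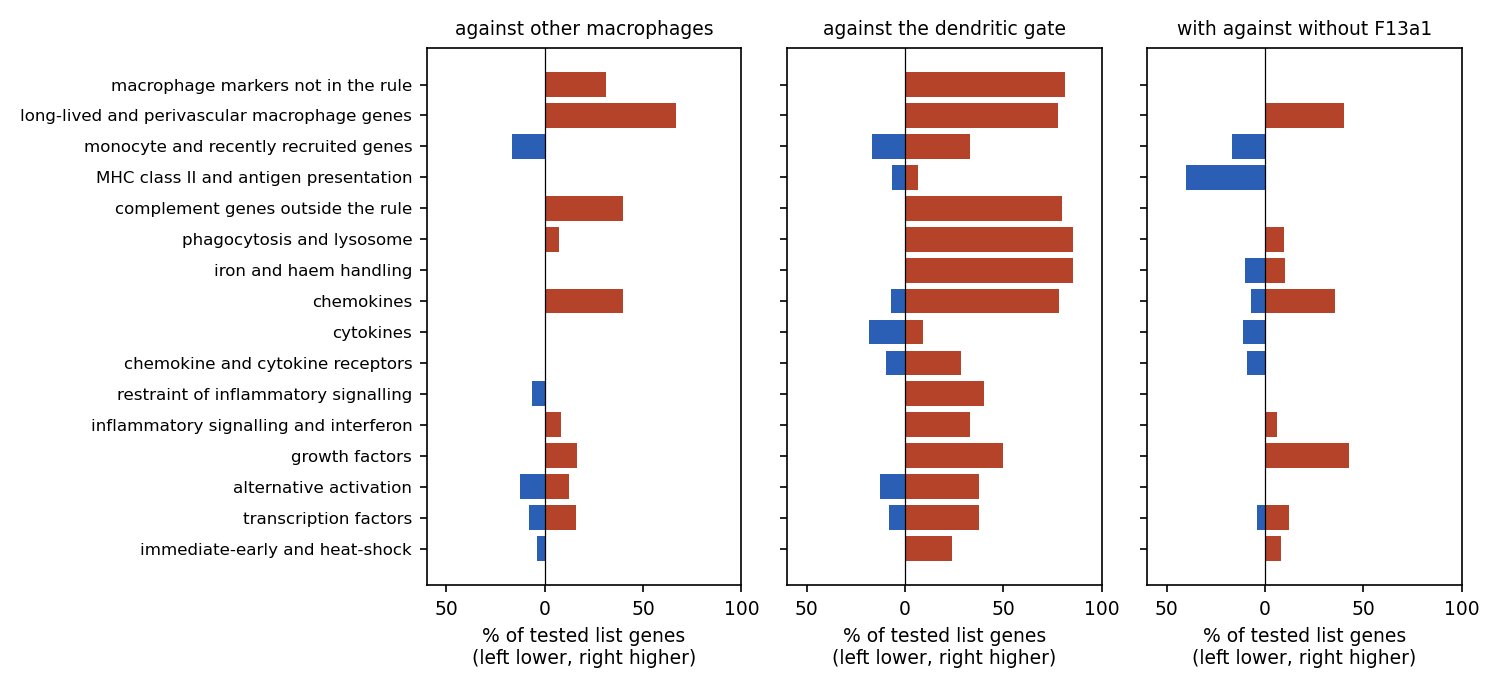
Percent of the tested genes of each list that were higher (right of 0) or lower (left) in the 3 comparisons, at an adjusted p under 0.05. Over all tested genes the percentages were 2.80 and 3.23 (left panel), 16.1 and 11.3 (middle) and 1.13 and 1.16 (right).

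Of 21 monocyte and recently recruited genes in the tables, 6 were tested in each comparison. Against other macrophages none was higher and Ly6c1 was lower, where 2.80% and 3.23% of all tested genes were higher and lower. Against the dendritic gate Thbs1 (1.62) and Cd44 (0.99) were higher and Plac8 lower, at shares over all genes of 16.1% and 11.3%. With F13a1 Thbs1 was lower and none higher, at shares of 1.13% and 1.16%. With 6 genes tested, such small counts cannot show that monocyte genes were lacking. Blood endothelial markers were also lower than in the other macrophages, at 0.0137% and 0.0107% of UMIs against 0.117% and 0.210%. Their part in the Ly6c1 difference was not tested. Ccr2, the receptor that brings monocytes into tissue, had 23 UMIs in 14 of the 362 cells, 2 of the UMIs in cells with F13a1, and Ly6c2 had 4. Il10, an anti-inflammatory cytokine, had 69 UMIs in 26 cells and passed in none of the comparisons. Tgfb1 was at 186 and 256 CPM and Igf1 at 81.5 and 119 CPM. Il6 had 8 UMIs and Wnt5a 2, so no difference in these could be seen at this depth.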

How the data were processed

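The deposited tables hold raw UMI counts for each gene in each barcode, as whole numbers. The submitters' processing notes name STAR 2.6 and mm10; how genes were counted is not given in the sources used here. All 7935 barcodes were read, and those with under 300 genes (1263) or over 10% mitochondrial UMIs (667) were left out. No doublet caller was run; cells with markers of other classes (non-myeloid lists and, for F13a1, dendritic markers) were counted and left out in alternatives. UMIs were summed per biological replicate and gate (86402 to 437235 UMIs) and per replicate and F13a1 class (103223 to 326071), and tested in edgeR 4.0.16 under R 4.3.3 (genes kept by filterByExpr, TMM factors, two-sided quasi-likelihood F test, Benjamini-Hochberg, threshold 0.05). The replicate was a block because collections of one number come from one biological replicate, per the series' design text. SE is the log2 fold change divided by the root of F. The 7 rule genes, and against the dendritic gate its 8 genes, were left out of calls. The code was tested on simulated data. Named genes were the 12 (first comparison) or 6 (others) with the largest change in each direction among those passing, with at least 20 UMIs on the higher side, plus members of fixed lists. The members, lists and splits were chosen with earlier results of these data known. Alternatives were DESeq2 1.42.0, its size factors, no gene filter, no block, sums per collection, thinning to 600 UMIs, stricter gates, other cell filters and leaving out each collection. With 2 replicates of unknown numbers of animals, p-values rest on how the difference between classes varied over these replicates, with variance information shared across genes. Differences in level between the replicates are taken up by the block. Intervals and floors (3 counts) cover counting error only. Some symbols are older forms (Emr1 for Adgre1, Sepp1 for Selenop). F13a1, Fcna, Ltc4s, Il1b, Ccl2 and Sepp1 overlap genes on the other strand in GENCODE M21, and whether the counting used strand is not given in the sources used here. Some list genes are not reported here one by one; list counts include them.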

Additional observations from a re-analysis of the deposited data

Results flagged for a closer look

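Of 18 quantities compared over the 5 collections, 2 had a collection that stood apart by Dixon's criterion for 5 values. Chance gives about 1 such case in 20 groups. Mrc1 was at 1256 CPM in the gated cells of collection 2A, against 912 to 932 CPM in the other 4 collections. The share of macrophages that fell in the gate was 86.3% in collection 2C, against 83.9 to 84.6% in the others, a gap well inside its exact 95% interval of 76.2 to 93.2%.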

How the results depend on the processing

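Main counts of genes higher and lower were 72 and 83 against other macrophages, 413 and 290 against the dendritic gate and 40 and 41 for F13a1. Against other macrophages, higher genes numbered 18 with DESeq2, 230 with no gene filter, 4 with thinned cells, 1 without cells with 2 non-myeloid markers, 9 without cells with 3 (added after seeing the data), 1 and 39 within replicates 1 and 2, 129 with at least 2 selecting genes and 0 with at least 3 macrophage genes. Lower genes numbered 217 with no filter, 11 thinned, 8 and 5 without the cells with 2 and 3 non-myeloid markers, 3 and 35 within replicates and 2 with at least 3 macrophage genes. Against the dendritic gate, higher genes numbered 236 with DESeq2, 663 with no filter, 267 summed per collection, 126 thinned, 104 without cells with 2 non-myeloid markers, and 241 and 188 within replicates; lower genes 131 with DESeq2, 58 thinned, 100 without cells with 2 non-myeloid markers, and 182 and 163 within replicates. With F13a1, higher genes numbered 9 with DESeq2, 0 with no filter, 65 with size factors, 69 with no replicate block, 126 per collection, 0 thinned, 11 and 18 without the cells with 2 and 3 non-myeloid markers and 14 within replicate 1; lower genes 16, 0, 62, 85, 101, 5, 16 and 23, and 17. Without cells with 2 dendritic markers (added after seeing the data) the F13a1 counts were 2 and 11. Leaving out one collection gave 17 to 96 higher and 35 to 99 lower genes against other macrophages, 311 to 426 and 182 to 271 against the dendritic gate, and 14 to 141 and 29 to 122 for F13a1. The gate's share of 6.03% became 3.98% with at least 2 selecting genes, 4.86% with at least 3 macrophage genes, 5.69% and 6.91% at 200 and 500 genes, 5.44% with no mitochondrial limit, 3.21% thinned, and 5.77 to 6.36% leaving out one collection. Single genes changed sign as follows. Against other macrophages without cells with 2 non-myeloid markers, Cd83 was at -0.0856, Ms4a7 at -0.33 and Zeb2 at -0.00473; thinned, Egr1 was at 0.33, Ninj1 at -0.0124 and Zeb2 at -0.0697; without cells with 3 markers Egr1 was at 0.65. Against the dendritic gate, Cxcl16 was at -0.28 and Tgm2 at -0.58 thinned, and Cxcl16 at -0.12 and Nfkbiz at -0.32 without cells with 2 markers. With F13a1, thinned, Gdf15 was at -0.0810, Grn at -0.0112, Hmox1 at -0.31 and Jund at -0.29. Fewer genes were tested after thinning; other causes were not tested.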
